A study of Mus musculus with 4 samples.

Results

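The TAM family consists of the receptor tyrosine kinases encoded by Tyro3, Axl and Mertk, and its classical ligands are encoded by Gas6 and Pros1. These 5 genes were taken by symbol from a table of 25965 genes measured in cultured VSMCs (smooth muscle cells of blood vessels, which contract the artery), and each matched a single entry. Polyadenylated RNA was sequenced from 4 libraries of 1 group: cells of the aortic media of C57Bl/6 mice, healthy wild type males 8 to 14 weeks old, released with collagenase and elastase, grown in medium with 10% serum and passaged 3 to 5 times. No freshly isolated or treated cells were analysed here, so the comparisons are between genes within a library and between libraries of the same kind. The labels do not say whether the libraries came from separate animals or cultures, and the spread between them may be technical. Libraries 1 to 4 are those labelled AR002, AR004, AR007 and AR016.

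Gas6 and protein S, the product of Pros1, are secreted proteins that are gamma-carboxylated in a vitamin K-dependent reaction, bind phosphatidylserine on dying cells through the carboxylated domain, and engage the receptors through their other end. Axl responds to Gas6, whereas Tyro3 and Mertk respond to both ligands. In the artery, Gas6 and Axl are known for promoting survival and migration of VSMCs, Mertk is best known as a receptor with which macrophages clear apoptotic cells, and protein S also circulates as an anticoagulant cofactor.

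The levels are the deposited log2 scaled reads: the log2 of a gene's read count times a constant of its library, without division by gene length. The libraries held 40342561 to 56793195 reads on genes, with the lowest depth in library 3. A gene counted as detected at a log2 level of at least 0 in 4 of 4 libraries, which took 22 to 30 reads and was met by 12306 genes (47.4% of the table). Of the marker genes, 8 of 8 of smooth muscle, the labelled cell type, were detected. So were 6 of 7 of fibroblasts, 5 of 8 of endothelium and 3 of 12 of macrophages, so detection alone does not set the cell type. The summed scaled reads per library were 9118 to 30438 for the smooth muscle markers and 152 to 1002 for the fibroblast markers. The libraries were not interchangeable: the median level of the detected genes was 5.49, 5.22, 4.78 and 4.95 in libraries 1 to 4, and the mitochondrial share was 0.382% in library 3 against 0.0653% to 0.133% in the others. No library was a repeat deposit of another.

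All 5 genes were detected, against 47.4% of all genes. Their levels rested on 461 to 63455 reads per library, so that the 95% Poisson intervals of single values had half-widths of at most 0.133 on the log2 scale. These intervals cover counting error only, since reads are not independent molecules and a fragment may have been counted more than once.

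Axl, the receptor that binds Gas6, varied between the libraries. Its levels in libraries 1 to 4 were 10.49, 10.20, 8.95 and 9.56 (mean 9.80 ± 0.68, SD, n = 4), read from chromosome 7, 25757273 to 25788705 (GRCm38). Library 1 was highest and library 3 lowest, 1.54 apart on the log2 scale, a 2.90-fold range. Its SD was above those of 79.5% of the detected genes.

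Tyro3, which binds both ligands and is best known from the nervous system, had levels of 5.65, 5.49, 4.39 and 4.94 in libraries 1 to 4 (5.12 ± 0.57, SD, n = 4; chromosome 2, 119797733 to 119818104). Library 1 was again highest and library 3 lowest. This was the order of the libraries seen in Axl, over a 2.40-fold range.

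Mertk, the receptor of macrophage efferocytosis, had levels of 5.20, 4.55, 5.19 and 6.03 (5.24 ± 0.61, SD, n = 4; chromosome 2, 128698956 to 128802894). Here library 4 was highest and library 2 lowest, while libraries 1 and 3 had nearly the same value. An annotated gene model within the Mertk locus, Gm14011, had 0 reads in every library, a count that up to 3 expected reads would allow. No other gene of the table overlapped a member.

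Gas6, the ligand shared by the 3 receptors, had levels of 11.02, 9.78, 11.17 and 11.08 (10.76 ± 0.66, SD, n = 4; chromosome 8, 13465374 to 13494535). Libraries 1, 3 and 4 lay close together at 11.09 ± 0.07 (SD, n = 3), and library 2 was 2.37-fold below the nearest of them. Without library 2 the SD of Gas6 thus fell from 0.66 to 0.07. This closeness depended on the scaling, as with median-ratio size factors (which set each library by the median ratio of its genes) the same libraries were at 10.70, 11.46 and 11.20.

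Pros1, encoding protein S, had levels of 7.10, 6.86, 5.44 and 5.48 (6.22 ± 0.88, SD, n = 4; chromosome 16, 62854307 to 62929346). Libraries 1 and 2 were high, libraries 3 and 4 low, and the range was 3.17-fold. Under the authors' scaling its SD was above those of 90.9% of the detected genes and was the highest of the 5 genes; with median-ratio size factors those of Gas6 (0.79) and Mertk (0.74) exceeded it (0.64).

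**Figure D1:**
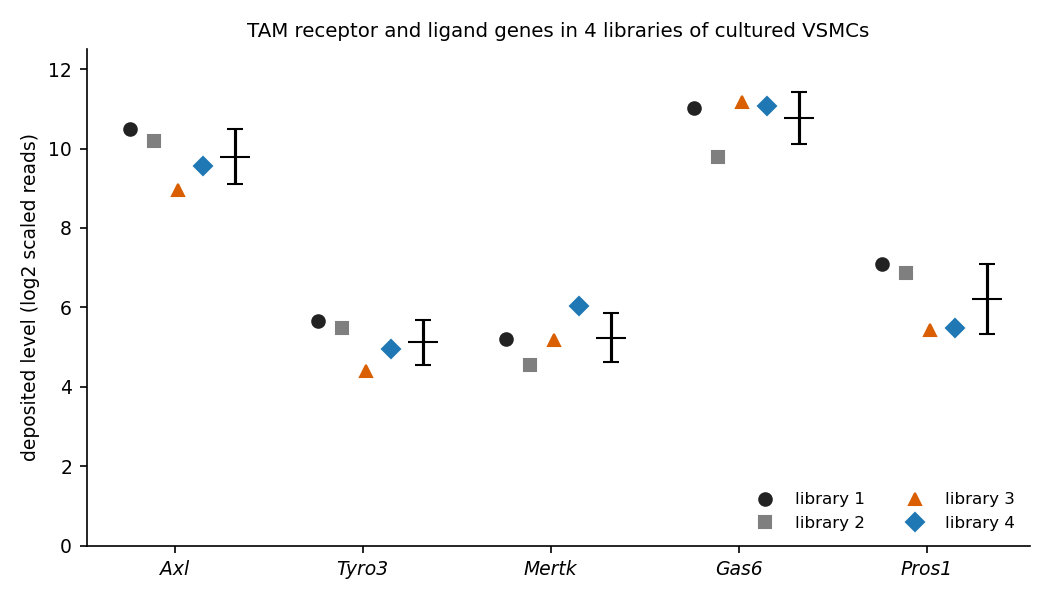
Deposited levels (log2 scaled reads, vertical axis) of the 5 genes in each of the 4 libraries (symbols), with mean and SD (black). Gas6 has 1 low value, library 2 at 9.78, and the other 3 lie at 11.02 to 11.17; Pros1 falls into a higher and a lower pair of libraries. The levels are not divided by gene length.

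Sequence upstream of the RefSeq start sites was examined for these genes, since Axl, Tyro3 and Pros1 ranked the libraries alike and Gas6 did not. The 250 bases before the start are shown (RefSeq, GRCm38.p6), with capitals marking matches to GGGCGG, the GC box bound by Sp1-family factors, or to GGAATG, the core recognised by TEAD factors. The windows are chr7:25788734-25788983 on the minus strand for Axl, chr2:119799264-119799513 on the plus strand for Tyro3, chr16:62854057-62854306 on the plus strand for Pros1, and chr8:13494536-13494785 on the minus strand for Gas6, each written 5′ to 3′ in the direction of the gene.
Axl: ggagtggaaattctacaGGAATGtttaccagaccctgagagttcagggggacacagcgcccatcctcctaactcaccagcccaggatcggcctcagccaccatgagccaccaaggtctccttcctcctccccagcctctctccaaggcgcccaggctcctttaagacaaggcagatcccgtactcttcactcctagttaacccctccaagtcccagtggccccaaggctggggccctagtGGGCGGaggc
Tyro3: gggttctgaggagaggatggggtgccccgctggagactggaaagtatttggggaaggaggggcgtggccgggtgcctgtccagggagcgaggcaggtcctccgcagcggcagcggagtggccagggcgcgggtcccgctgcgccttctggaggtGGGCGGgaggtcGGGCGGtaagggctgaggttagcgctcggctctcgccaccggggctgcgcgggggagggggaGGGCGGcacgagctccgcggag
Pros1: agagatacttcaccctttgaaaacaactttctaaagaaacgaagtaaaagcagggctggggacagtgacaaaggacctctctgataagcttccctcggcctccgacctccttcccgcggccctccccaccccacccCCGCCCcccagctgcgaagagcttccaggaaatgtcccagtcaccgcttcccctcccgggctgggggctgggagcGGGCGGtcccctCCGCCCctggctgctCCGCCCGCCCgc
Gas6: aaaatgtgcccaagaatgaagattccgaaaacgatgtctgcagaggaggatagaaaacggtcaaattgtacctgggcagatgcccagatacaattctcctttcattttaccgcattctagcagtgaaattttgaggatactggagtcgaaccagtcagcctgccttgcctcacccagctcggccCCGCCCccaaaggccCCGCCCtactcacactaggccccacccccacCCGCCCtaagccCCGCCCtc

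A GC box on either strand occurred 1 time in the Axl window (bases -10 to -5 from the start), 3 times in that of Tyro3, 5 times in that of Pros1, where 2 matches overlap, and 4 times in that of Gas6. Mertk, with its window at chr2:128698665-128698914, had 3. Of 32851 mouse promoter windows of 250 bases, 32.7% held the motif. The TEAD core was found at -233 to -228 in the Axl window, as in 12.6% of windows, and in none of the other 4. The letters TGANTCA (AP-1) and ACGTG (a hypoxia response core), present in 6.75% and 16.6% of windows, were in none of the 5. The Tyro3 window lies inside the deposited span of the gene, which starts upstream of this RefSeq start. Bases G and C made up 60.0% of the Axl, 73.2% of the Tyro3, 64.4% of the Pros1, 54.8% of the Gas6 and 63.6% of the Mertk window. GC boxes were thus found in the windows of the genes that ranked the libraries alike and in those of Gas6 and Mertk alike.

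The genes were next compared with each other per kb of merged exons, because a longer transcript yields more reads. On this per-length scale Gas6 averaged 9.41, Axl 7.47, Pros1 4.19, Mertk 3.12 and Tyro3 2.49 (log2 scaled reads per kb, with the SDs given above, n = 4). Gas6 was followed by Axl in 4 of 4 libraries, and the lower 3 genes changed places. The per-length levels of Pros1, Mertk and Tyro3 were 5.07, 3.09 and 3.02 in library 1, and 3.45, 3.91 and 2.31 in library 4. In library 2, Tyro3 exceeded Mertk, at 2.86 against 2.43. The neighbours Pros1 and Mertk, and Mertk and Tyro3, therefore did not differ beyond their spread.

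All 10 pairs of genes were tested within libraries. In 8 pairs the per-length difference had 1 sign in 4 of 4 libraries, and flipping the signs of the libraries in an exact permutation test (two-sided) gave each of them the smallest p that 16 arrangements allow, 2 of 16, or an adjusted p = 0.156 over the 10 pairs (Benjamini-Hochberg). With 4 libraries no pair could therefore reach 0.05. The other pairs were Tyro3 minus Mertk (-0.64 ± 0.98, SD, 3 of 4 libraries of 1 sign) and Mertk minus Pros1 (-1.06 ± 1.35, 3 of 4 libraries), with exact p = 0.375 each (adjusted 0.375). The order of Tyro3 and Mertk turned when reads were divided by coding length (0.054 ± 0.98).

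The difference between Axl and Tyro3 was the most even of the 10. Per length, Axl exceeded Tyro3 by 5.14, 5.00, 4.86 and 4.92 in libraries 1 to 4, a mean of 4.98 ± 0.12 (SD, n = 4) or 31.6-fold. The SD of this difference was well under those of the levels of either gene (0.68 and 0.57), as both were high in libraries 1 and 2 and low in library 3. The difference between Axl and Mertk was wider, at 5.07, 5.44, 3.55 and 3.32 (4.34 ± 1.07), and Mertk did not share this pattern. In libraries 3 and 4 it was smaller than in libraries 1 and 2.

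Of the ligands, Gas6 exceeded Pros1 per length by 4.61, 3.60, 6.41 and 6.28 (5.22 ± 1.36, SD, n = 4), or 37.4-fold on average. The gap was smallest in library 2, where Gas6 was low and Pros1 high. Gas6 also exceeded Axl, its receptor, by 1.52, 0.56, 3.20 and 2.50 in libraries 1 to 4. This last difference kept 1 sign per exon length, while without division by length, or per coding length, it did not (exact p = 0.25 in both).

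**Figure D2:**
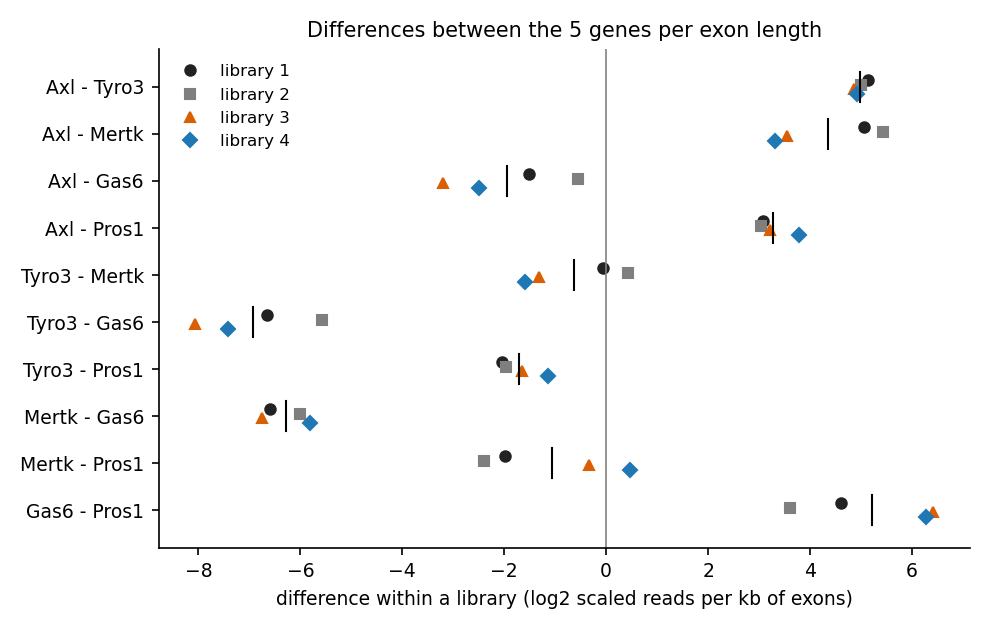
Differences within each library between the 5 genes (log2 scaled reads per kb of exons, horizontal axis; symbols are libraries, black bars are means). Axl minus Tyro3 spans 4.86 to 5.14, whereas Gas6 minus Pros1 spans 3.60 to 6.41; Tyro3 minus Mertk and Mertk minus Pros1 lie on both sides of 0.

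Expressed as shares of the family's receptor reads per length, Axl made up 94.5%, 94.9%, 89.3% and 88.2% in libraries 1 to 4 (91.7% ± 3.44, SD, n = 4). Mertk made up 2.82%, 2.19%, 7.63% and 8.85%, and Tyro3 2.69%, 2.95%, 3.07% and 2.92%. The Tyro3 share was thus nearly constant, and the Mertk share was higher in libraries 3 and 4, where that of Axl was lower. As the shares add up to a whole, these opposite changes are not separate results. In library 3 the level of Mertk (5.19) was near that of library 1 (5.20), while Axl had its lowest level (8.95). Gas6 made up 96.1%, 92.4%, 98.8% and 98.7% of the ligand reads per length. The summed ligands exceeded the summed receptors per length by 2.82, 1.52, 8.29 and 5.05-fold, most in library 3. Without division by length the direction turned in library 2, where the scaled reads of the ligands summed to 994 and those of the receptors to 1243.

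The variation between libraries was set beside that of all genes. All 5 genes had an SD above 0.5, as did 40.5% of the detected genes, and none an SD above 1 (5.80% of the detected genes). With median-ratio size factors, which shift the median level of libraries 1 to 4 by -0.32, -0.10, 0.30 and 0.12 relative to the authors' scaling, 3 of the 5 genes (Mertk, Gas6 and Pros1; SDs of 0.74, 0.79 and 0.64) remained above 0.5, as did 30.7% of detected genes. Axl then had an SD of 0.43 and Tyro3 of 0.32. Without library 2, Mertk (0.48) and Gas6 (0.07) fell below 0.5, and without library 3, Axl (0.47) and Tyro3 (0.37) did, leaving 3 of 5 genes above it in each case, as were 43.8% and 34.6% of the detected genes in these settings. Without library 4, Mertk was below it at 0.38, and 46.0% of the detected genes were above it.

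Axl, Tyro3 and Pros1 ranked the libraries alike, from highest to lowest 1, 2, 4 and 3. This order was common, with 29.5% of the detected genes showing it, and with median-ratio size factors Axl alone kept it (11.2% of detected genes). In these 3 genes libraries 1 and 2 were both above libraries 3 and 4 under either scaling, a feature of 51.8% of the detected genes under the authors' scaling and of 27.0% under median-ratio size factors. Mertk and Gas6 were both lowest in library 2 under either scaling. The separate orders that end in library 2 were shown by 2.02%, 3.76%, 0.943%, 1.84%, 1.87% and 2.77% of the detected genes under the authors' scaling. Their share under median-ratio size factors was not counted. Gas6 was highest in library 3 and Mertk in library 4.

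**Figure D3:**
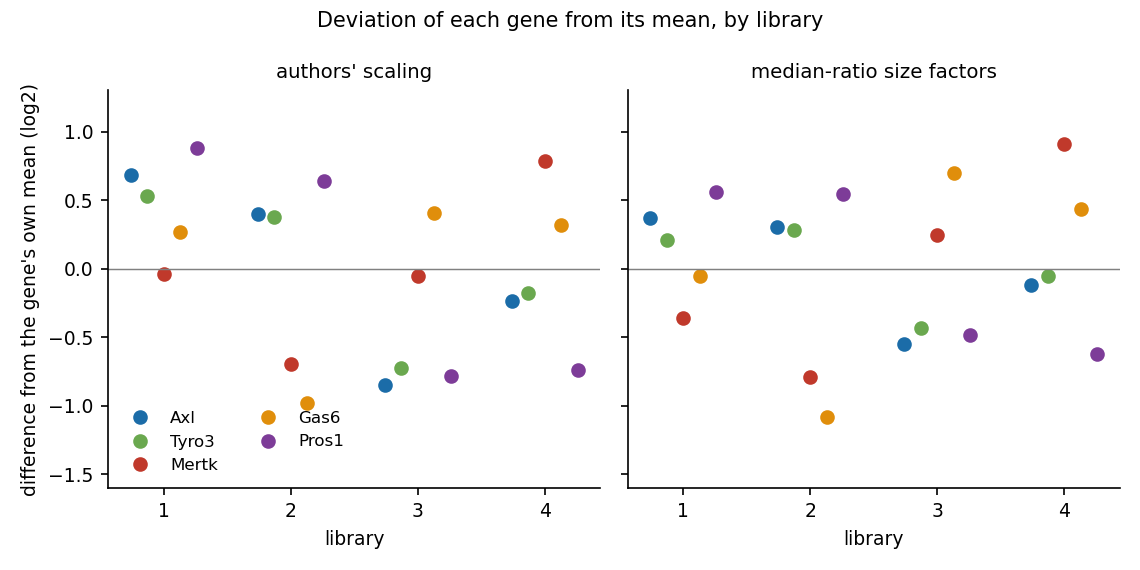
Difference of each gene from its own mean (log2, vertical axis) in libraries 1 to 4, under the authors' scaling (left) and median-ratio size factors (right). Axl, Tyro3 and Pros1 lie above 0 in libraries 1 and 2 and below 0 in libraries 3 and 4; Gas6 and Mertk are lowest in library 2 in both panels.

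The receptors were placed among 58 receptor tyrosine kinase genes, of which 35 were detected (60.3%, against 47.4% of all genes). Per kb of exons, Axl ranked 1 of 58 (7.47 ± 0.68, SD, n = 4), ahead of Pdgfrb, the PDGF receptor of mural cells (7.06 ± 0.48), the collagen receptor gene Ddr1 (5.87 ± 0.69), Fgfr1 (5.44 ± 0.43) and the Wnt co-receptor gene Ryk (5.24 ± 0.44). Axl was first in libraries 1, 2 and 4 and second in library 3, where Pdgfrb reached 6.95 against 6.62. The difference of Axl from Pdgfrb was 0.40 ± 0.73, within the spread between libraries. Mertk ranked 14 (between Ptk7 at 3.18 ± 0.85 and Ephb3 at 2.69 ± 0.65) and Tyro3 ranked 17 (between Pdgfra at 2.60 ± 1.22 and Egfr at 2.20 ± 0.38), and the differences from these neighbours were -0.06 ± 1.26, 0.43 ± 1.16, -0.11 ± 0.74 and 0.29 ± 0.24 in that order, each with both signs among the libraries. Single-library ranks ran from 9 to 17 for Mertk and from 15 to 18 for Tyro3. The kinase genes Ros1 and Alk had 0 reads in every library, where up to 3 would be allowed.

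**Figure D4:**
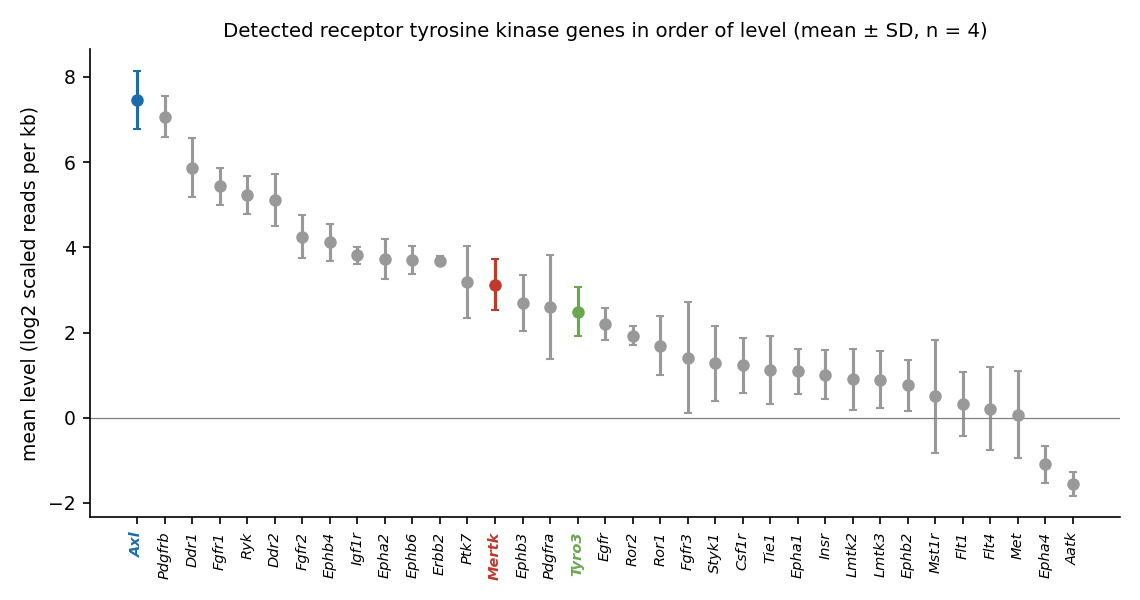
The 35 detected receptor tyrosine kinase genes in order of mean level (log2 scaled reads per kb of exons; points are means, bars SDs over 4 libraries). Axl (7.47) leads, and Mertk (3.12) and Tyro3 (2.49) lie in the middle of the order.

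Markers of other cells were read beside the members, since macrophages carry Mertk and fibroblasts and endothelial cells can carry TAM genes. In bulk RNA, fewer cells of a type and less RNA per cell cannot be told apart. Of 12 macrophage markers 3 were detected, and their summed scaled reads were 76.2, 63.5, 18.7 and 22.4 in libraries 1 to 4. The detected ones were the CSF1 receptor gene Csf1r (564, 581, 187 and 296 reads), the lysozyme gene Lyz2 (927, 441, 68 and 39) and the lipopolysaccharide co-receptor gene Cd14 (187, 265, 115 and 273). Csf1r and Lyz2 were high in libraries 1 and 2, whereas Cd14 was nearly the same in libraries 2 and 4 (3.20 and 3.22 log2 scaled reads). Library 2 was the lowest of Mertk. In libraries 3 and 4 Adgre1 (encoding F4/80), Itgam, C1qb, C1qc, Mrc1 and Fcgr1 had no reads. C1qb had 192 and 239 in libraries 1 and 2. C1qa had 173, 201, 0 and 18 reads in libraries 1 to 4, Ptprc (encoding CD45) 13, 27, 0 and 12, and Cd68 49, 35, 42 and 21. These genes are the rest of the macrophage list and are named after their values were seen.

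Of 7 fibroblast markers 6 were detected, all with an SD above 0.5, and their sums were 1002, 806, 153 and 152. The 8 smooth muscle and 5 detected endothelial markers also all had an SD above 0.5, against 40.5% of the detected genes. The fibroblast markers were high in the same libraries as Axl, Tyro3 and Pros1. Libraries 1 and 2 were both above libraries 3 and 4 in 51.8% of the detected genes under the authors' scaling. The sums of the 8 smooth muscle markers ran the other way, at 12212, 9118, 25194 and 30438, and were lowest in library 2, where Mertk and Gas6 were also lowest. The contractile myosin gene Myh11, named after its values were seen, had 4057, 1164, 5940 and 17719 reads. Of 8 endothelial markers 5 were detected, with sums of 73.0, 54.0, 78.6 and 26.2, lowest in library 4. The part of these markers, of depth and of the mitochondrial share in the differences between libraries was not tested.

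The genes whose library pattern was most like that of each member were found by the root mean square (RMS) difference of library-centred log2 values over 4 libraries, among 10959 other detected named genes. For Axl these were Gpbp1l1 (0.0254), Inpp5f (0.0276) and Prdx3 (0.0292), for Tyro3 Lnp (0.0163), Sema4c (0.0178) and Zfp637 (0.0262), and for Pros1 Fam124a (0.0281), H2-T23 (0.0326) and Sass6 (0.0375). Such likeness was common: 147 genes lay within 0.1 of Axl and 207 within 0.1 of Tyro3. For Gas6 the nearest were Adamtsl2 (0.0448), Skap1 (0.0715) and Il18bp (0.0745), with 7 genes within 0.1, and for Mertk Sybu (0.0245), Mgll (0.0702) and Tle4 (0.0720), with 3 within 0.1. For Pros1, 25 genes lay within 0.1. Tyro3 lay at 0.10 from Axl, and 158 of 10959 genes (1.44%) were closer to Axl than that. Mertk and Gas6 lay 0.39 apart, with 509 genes (4.64%) closer to Mertk. These values are descriptions over 4 points of the same libraries.

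Genes of the vitamin K-dependent reaction were examined as RNA, and carboxylation of the ligands was not measured. Of 7 genes of gamma-carboxylation and the vitamin K cycle, 7 were detected, at a list median of 5.58 log2 scaled reads, against 47.4% and a median of 0.13 for all genes. By reads the highest were Calu, encoding the carboxylase-inhibiting calcium-binding protein calumenin (11.49 ± 0.14), Vkorc1, the warfarin-sensitive vitamin K epoxide reductase gene (7.68 ± 0.06), and Nqo1, a quinone reductase gene (6.40 ± 0.35). Ggcx, the carboxylase gene itself, named after its values were seen, had levels of 6.39, 5.59, 5.02 and 5.33. It was highest in library 1 and lowest in library 3, as Axl was.

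Of 12 other genes of vitamin K-dependent proteins, 3 were detected, against 47.4% of all genes, at a list median of -2.20. They were Mgp, the matrix Gla protein gene that restrains arterial calcification (10.36 ± 0.10), and the transmembrane Gla protein genes Prrg2 (5.56 ± 0.15) and Prrg3 (2.62 ± 1.20). The coagulation factor genes F7 and F9 had 0 reads in every library, where up to 3 would be allowed. Of 3 other proteins reported to bind TAM receptors, 1 was detected, the galectin-3 gene Lgals3 (5.44 ± 0.40), while Tulp1 had 19, 14, 11 and 35 reads and Tub 11, 0, 0 and 17.

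Genes acting on or below the receptors were mostly detected, against 47.4% of all genes, whose median level was 0.13. Both protease genes that shed TAM ectodomains were detected, Adam10 at 6.70, 5.87, 5.40 and 5.53 and Adam17 at 6.08, 5.76, 5.08 and 5.29 log2 scaled reads in libraries 1 to 4. Of 25 adaptor and effector genes 21 were detected (list median 6.71), with the most reads on Akt1, a survival kinase gene (9.62 ± 0.39), Ptpn11, encoding the phosphatase SHP2 (9.00 ± 0.54), and Shc1, an adaptor gene (8.37 ± 0.20). Among them 13 shared the library order 1, 2, 4, 3 of Axl under the authors' scaling, an order shown by 29.5% of all detected genes. This order depended on the scaling, as 11.2% of detected genes showed it with median-ratio size factors. The list is not counted here under those factors, and a tie to Axl was not tested. The blood cell exchange factor gene Vav1, named after its values were seen, had 8, 7, 0 and 0 reads. Of 6 genes of the interferon receptor and SOCS arm, through which TAM receptors dampen cytokine signals, 6 were detected (list median 4.76), led by reads by Ifnar1 (5.42 ± 0.58) and Ifnar2 (5.42 ± 0.23).

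Of 18 other receptor and bridging genes of phosphatidylserine recognition 9 were detected, a share near the 47.4% of all genes (list median 1.76), with the most reads on Thbs1, encoding thrombospondin-1 (12.66 ± 0.87), Itgb5, an integrin subunit gene (11.52 ± 0.27), and Mfge8, encoding the bridging protein lactadherin (11.01 ± 0.54). Mfge8, a bridge to integrins as Gas6 is to TAM receptors, had levels of 10.36, 10.77, 11.49 and 11.42, and unlike Gas6 was not lowest in library 2. The TIM-family receptor genes Timd4 and Havcr1 had 0 reads in every library, where up to 3 would be allowed. Havcr2 of the same family, named after its values were seen, had 29, 71, 0 and 0 reads in libraries 1 to 4. All 5 genes of phosphatidylserine exposure and flipping were detected (list median 6.86), led by the scramblase gene Ano6 (8.53 ± 0.33), Atp11a (7.14 ± 0.82) and Tmem30a (6.86 ± 0.33), which encode a flippase and its subunit.

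Of 6 genes of the anticoagulant setting of protein S, 4 were detected (list median 5.65), against 47.4% of all genes (median 0.13). By reads the highest were the thrombomodulin gene Thbd (7.21 ± 0.66), the protein C receptor gene Procr (6.21 ± 0.70) and the tissue factor gene F3 (6.15 ± 0.69). Thbd had levels of 7.78, 7.73, 6.44 and 6.88, high in libraries 1 and 2 as Pros1 was. In 51.8% of the detected genes libraries 1 and 2 were both above libraries 3 and 4 under the authors' scaling. Procr and the detected gene Tfpi had this pattern too, whereas F3 was lowest in library 2 (7.04, 5.38, 5.99 and 6.18). Among 15 genes of factors reported to regulate TAM genes, 15 were detected (list median 5.99), against the same 47.4% of all genes. The most reads were on Rxra, a partner of the liver X receptors (7.50 ± 0.12), Tead1, a Hippo pathway effector (7.26 ± 0.64), and Epas1, encoding HIF-2alpha (7.19 ± 0.67). Alone among the 15, Epas1 ranked the libraries as Gas6 did, from highest to lowest 3, 4, 1 and 2. Its levels were 7.31, 6.23, 7.77 and 7.44 in libraries 1 to 4. Of the detected genes, 1.84% showed this order. The match was picked from 15 genes after their values were seen, and a link to Gas6 was not tested.

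**Figure D5:**
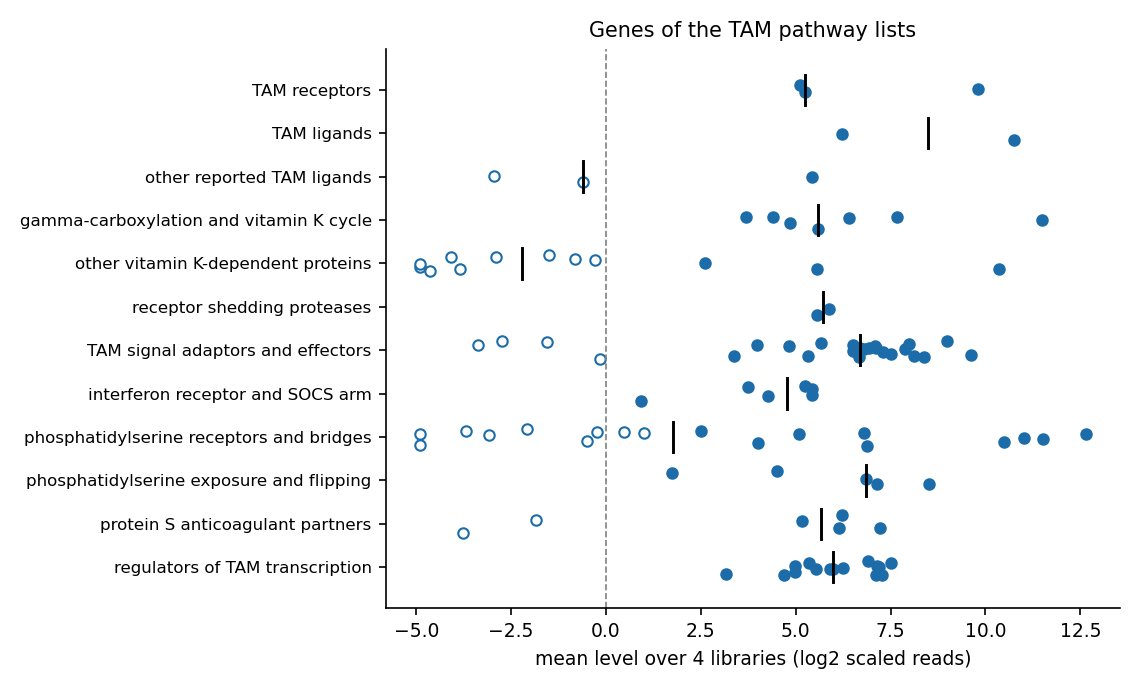
Mean levels over 4 libraries (log2 scaled reads, not divided by length) of the genes in each list; filled points are detected genes, open points are not, black bars are list medians and the dashed line is the detection threshold of 0. The vitamin K cycle list is detected in full, and 9 of 18 genes of the phosphatidylserine receptor list are, a share near the 47.4% of all genes.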

How the data were processed

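RNA was prepared from cultured aortic medial cells with integrity numbers of 7.8 to 9, and libraries were made from 4 ug of total RNA by poly(A) selection in a TruSeq kit that keeps the strand, per the labels' protocols. The submitters' processing notes name TopHat, cutadapt and Trim Galore, with the build GRCm38. For the counting tool, its annotation and strand setting, and the scaling, the sources used here give nothing.

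The authors deposited log2 values of scaled reads, 1 column per library. From the values, 1 read is worth 0.0344, 0.0346, 0.0455 and 0.0340 in libraries 1 to 4, and 99.8% of values above the floor were whole multiples of it, to a tolerance of 0.05 read, in each. A gene with no read is set to 0.9 read. The linear values do not sum to the same total in each library. The recovered reads were 56265771, 55521916, 40342561 and 56793195. No count model was fitted, as there is 1 group.

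Merged exon, coding and longest transcript lengths came from GENCODE M21 (GRCm38), matched by symbol and position for 87.1% of genes and for all members and receptor tyrosine kinases. Its Axl, Tyro3, Mertk and Pros1 spans equal the deposited ones, and that of Gas6 ends earlier. Differences within libraries were tested by exact sign-flip permutation. Named were the members, the 3 highest genes by reads of each list with any gene without reads where at most 5, the 5 highest kinases, the neighbours of each receptor, and the 3 genes nearest in library pattern; some genes that this rule names are not reported here. The members, 11 pathway lists and 4 marker lists (189 genes) were chosen with earlier results of these data known. Alternatives were size factors, lengths, thresholds and leaving out libraries. Scripts were tested on simulated data. The versions were matplotlib 3.10.9, pandas 2.3.3, scipy 1.17.1, numpy 2.4.6 and Python 3.11.15.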

Additional observations from a re-analysis of the deposited data

Results flagged for a closer look

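The Gas6 level of library 2, 9.78 log2 scaled reads, lay apart from the other 3 libraries, the nearest of which was at 11.02. This gap was 0.90 of the whole range of the 4 libraries, above the 95% critical value of Dixon's test for 4 samples. Of 18 values and differences examined this was the only one past it, and chance alone flags about 1 in 20. With median-ratio size factors the gap was 0.58 of the range, under the critical value, and library 2 was still lowest (9.68 against 10.70).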

How the results depend on the processing

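Of 190 alternative values, 181 kept their direction and their side of the threshold, or moved within the spread between libraries, though sizes could change: without division by length Axl minus Gas6 went from -1.94 to -0.96 and Tyro3 minus Mertk from -0.64 to -0.12. Mertk minus Pros1 went from -1.06 to -0.62 without library 2. Per coding length, the levels of Axl, Tyro3 and Pros1 became 8.38, 3.72 and 5.20, because untranslated exons no longer count, and Tyro3 minus Mertk reversed to 0.054. The number of members with an SD above 0.5 fell from 5 to 3 with median-ratio size factors, to 0 with an SD above 1, and ran from 3 to 5 when 1 library was left out. The number of members with the library order 1, 2, 4, 3 fell from 3 to 1 with median-ratio size factors, an alternative chosen after the data were seen. Levels averaged over the libraries are the same under both scalings by construction. Leaving out 1 library cannot move such a level by more than its SD. These alternatives for levels were therefore bound to be among the 181, which overstates how stable the results are. No paired analysis was possible because there is 1 group, so no replicate number pairs libraries across groups; the differences between genes are within libraries. Depth limits genes with few reads and none of the members, and the number of libraries limits each test.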
